A study of Mus musculus with 18 samples.

Results

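DMC1 hotspots of B6/Hum heterozygous males were set against the hotspots of Hum/Hum and B6/B6 males to see how many hotspots of each Prdm9 allele, and how much of their signal, were found when both alleles were present. DMC1 ChIP-seq of testis marks sites of meiotic DNA double-strand breaks, and each site carries a heat, the relative DMC1 signal deposited by the authors. The members were all autosomal hotspots of the 3 mm10 maps, 16163 in B6/Hum, 15515 in Hum/Hum and 16974 in B6/B6, which are 48652 of the 165207 autosomal hotspots in the 9 DMC1 maps of the series. A further 1042 B6/Hum hotspots on a chromosome coded 20 were left out. A hotspot was called kept when a B6/Hum centre lay within 1000 bp of its own centre and lost when none did, and a B6/Hum hotspot was called Hum-type, B6-type, both or neither by the homozygote maps with a centre within the same distance.

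The B6/Hum and Hum/Hum males were C57BL/6J (B6) mice of about 10 weeks, with 1 humanized and 1 B6 copy of Prdm9 in B6/Hum and 2 humanized copies in Hum/Hum. The B6/B6 map was made by the authors from a library of other submitters, so Prdm9 genotype and library source cannot be told apart wherever B6/B6 is compared. Each genotype had 1 library, so no difference between genotypes was tested. The 95% intervals given are Wilson intervals for shares and order-statistic intervals for medians. They cover counting error over hotspots only, and neighbouring hotspots are not independent.

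PRDM9 is a meiotic zinc-finger protein that binds DNA motifs and places H3K4me3 on the flanking nucleosomes, and SPO11 then cuts the DNA there. DMC1 is the meiotic strand-exchange protein that coats the single-stranded ends, so its signal reflects both how often a site is cut and how long the break stays unrepaired. The humanized allele carries the zinc-finger array of human PRDM9 in the mouse gene, and B6 and human PRDM9 recognise different motifs.

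The difference in motif was visible in the sequence at the hotspots. The letters CCTCCCT, the core of the motif known for human PRDM9, were searched on both strands of the 301 bases centred on each hotspot. They were present at 16.7% of the 11175 Hum-type B6/Hum hotspots (16.0 to 17.4), against 8.51% of the 4277 B6-type ones (7.71 to 9.38) and 7.43% of 23959 windows of the same length spaced along the autosomes. GNTGCTNCT, which is known from B6 hotspots, was present at 6.51% of Hum-type hotspots (6.06 to 6.98), against 20.3% of B6-type ones (19.1 to 21.6) and 5.30% of the autosomal windows. Windows of the same length starting 1500 bases upstream of the centres held CCTCCCT in 9.07% of Hum-type cases and GNTGCTNCT in 6.27% of B6-type cases. CCCCCC, also searched for Hum, was present at 29.4% of Hum-type hotspots, 7.88% of B6-type ones and 7.98% of the autosomal windows. For GCTACT, also searched for B6, these shares were 10.6, 21.7 and 10.4%. Below, an allele's letters are CCTCCCT for Hum and GNTGCTNCT for B6. A match describes the letters in the window and is not evidence of binding.

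The following stretches of 151 bases from RefSeq GRCm38.p6 (mm10) show the 3 hottest Hum-type and the 3 hottest B6-type B6/Hum hotspots that held their allele's letters within the stretch, outside bins of high input, with those letters in capitals. Of 10768 Hum-type and 4145 B6-type hotspots so examined, 8.68% and 10.3% held the letters in this shorter stretch. Each is written 5′ to 3′ on the strand where the letters read as spelled above.
Hum-type, intergenic, 91036 bp from Ly86, chr13:37509997-37510147, + strand: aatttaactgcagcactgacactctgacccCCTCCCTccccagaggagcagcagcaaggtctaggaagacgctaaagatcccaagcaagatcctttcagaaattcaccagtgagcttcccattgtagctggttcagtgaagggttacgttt
Hum-type, coding exon of Il17rd, chr14:27101264-27101414, + strand: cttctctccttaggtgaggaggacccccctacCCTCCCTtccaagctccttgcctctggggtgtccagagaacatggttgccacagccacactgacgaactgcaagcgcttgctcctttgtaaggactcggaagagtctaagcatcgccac
Hum-type, intron of Fat1, chr8:44959508-44959658, + strand: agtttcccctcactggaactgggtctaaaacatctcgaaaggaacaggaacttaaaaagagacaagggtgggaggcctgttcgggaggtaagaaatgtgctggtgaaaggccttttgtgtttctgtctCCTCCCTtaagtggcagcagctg
B6-type, intron of Apmap, chr2:150589785-150589935, - strand: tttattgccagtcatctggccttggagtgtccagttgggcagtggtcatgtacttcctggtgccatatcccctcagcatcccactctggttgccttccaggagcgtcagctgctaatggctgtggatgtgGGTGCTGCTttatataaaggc
B6-type, intron of Dlgap2, chr8:14459284-14459434, - strand: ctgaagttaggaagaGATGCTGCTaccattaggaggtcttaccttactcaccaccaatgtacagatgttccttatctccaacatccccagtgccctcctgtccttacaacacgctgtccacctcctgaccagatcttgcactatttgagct
B6-type, intergenic, 434957 bp from Klhl1, chr14:96953984-96954134, - strand: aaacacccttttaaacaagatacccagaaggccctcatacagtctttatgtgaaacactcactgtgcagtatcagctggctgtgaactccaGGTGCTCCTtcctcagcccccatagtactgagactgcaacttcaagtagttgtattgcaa

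All 3 of these Hum-type sites were hotter in B6/Hum. The site near Ly86 had a heat of 952.2 in B6/Hum and 720.1 in Hum/Hum. The site in Il17rd had 733.9 in B6/Hum and 542.8 in Hum/Hum. The site in Fat1, which encodes a large protocadherin, had 637.3 in B6/Hum and 575.2 in Hum/Hum. The 3 B6-type sites were slightly cooler in B6/Hum, with 343.6 against 354.3 in B6/B6 at Apmap, 328.4 against 369.8 at Dlgap2 and 322.4 against 356.1 near Klhl1. All 6 were chosen for their heat in B6/Hum, which favours sites that kept it. The hottest site of each type, near Phtf2 and in Ankfn1, held none of its allele's letters in the stretch.

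Most B6/Hum hotspots lay at Hum sites. Hum-type hotspots numbered 11175 or 69.1% (68.4 to 69.8), B6-type hotspots 4277 or 26.5% (25.8 to 27.1), and 314 or 1.94% lay within 1000 bp of both. The remaining 397 or 2.46% lay near neither homozygote map. By heat the imbalance was larger, with 77.5% of B6/Hum heat in Hum-type hotspots and 19% in B6-type hotspots. The centres agreed closely, with a median offset of 57 bp at Hum-type sites and 59 bp at B6-type sites.

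The Hum-type excess grew with heat. In the coldest decile of B6/Hum hotspots 55.5% were Hum-type (53.0 to 57.9), and there were 1.90 Hum-type hotspots for each B6-type hotspot. In the hottest decile 85.3% were Hum-type (83.5 to 87.0), or 7.97 for each B6-type hotspot. Among the 100 hottest B6/Hum hotspots 87 were Hum-type, 8 were B6-type and 5 were both.

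Of the Hum/Hum hotspots 11493 of 15515 were kept, and of the B6/B6 hotspots 4601 of 16974. The kept hotspots held 92.4% of all Hum/Hum heat and 60.0% of all B6/B6 heat. The B6/Hum heat found at these sites came to 81.0% of the Hum/Hum total and 22.2% of the B6/B6 total, a ratio of 3.66 between the alleles. Sites of both homozygotes are counted for each allele here. Without them the shares were 80.2 and 19.6%. The 3 maps had nearly equal total heat, 1424920 in B6/Hum, 1417450 in Hum/Hum and 1418960 in B6/B6, so heat describes the division of signal among sites and not the number of breaks per cell.

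Whether a hotspot was kept depended strongly on its heat in the homozygote, and the dependence began at a much lower heat for Hum sites. The shares below use hotspots with no hotspot of the other homozygote within 1000 bp, 15154 in Hum/Hum and 16610 in B6/B6. From the coldest to the hottest decile, 13.2, 28.6, 46.3, 68.8, 87.0, 95.3, 99.1, 99.6, 99.9 and 99.9% of Hum/Hum hotspots were kept. Over the same steps 0.666, 0.784, 0.783, 1.74, 3.49, 9.56, 20.8, 45.6, 79.0 and 96.3% of B6/B6 hotspots were kept. B6/Hum centres with 1000 bp on each side covered 1.31% of the autosomes. That coverage is not a chance level for the B6/B6 shares. Most B6/Hum centres lay near a Hum/Hum centre, and B6/B6 hotspots near a Hum/Hum centre were left out. With hotspots in 50 groups of rising heat, the kept share stayed at or above 50% from a median heat of 29.9 in Hum/Hum and of 119.5 in B6/B6.

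**Figure D1:**
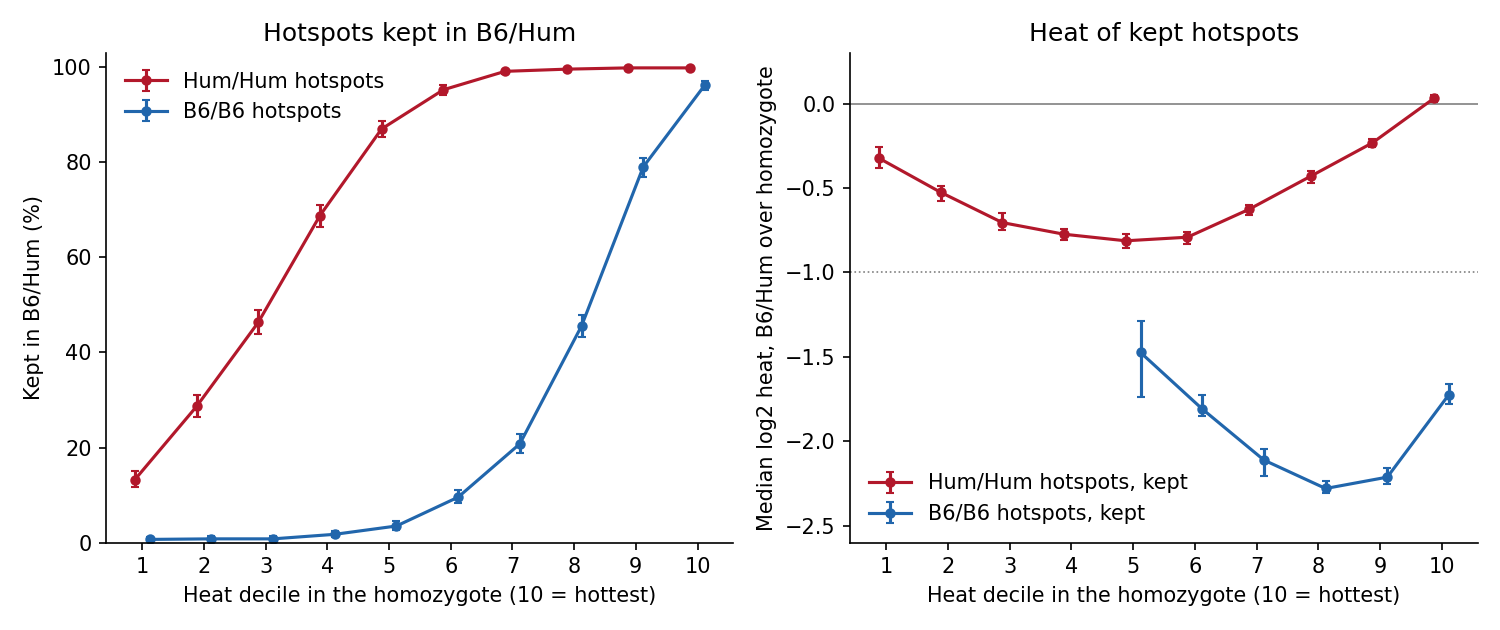
Left, percent of Hum/Hum (red) and B6/B6 (blue) hotspots kept in B6/Hum by heat decile of the homozygote map, with Wilson 95% intervals. Right, median log2 of B6/Hum heat over homozygote heat at kept hotspots with 95% order-statistic intervals, for deciles with at least 50 kept hotspots; the dotted line at -1 marks a 2-fold lower heat. In the hottest decile 99.9% of Hum/Hum and 96.3% of B6/B6 hotspots were kept, but their median log2 changes were 0.03 and -1.72.

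In the mm10 maps, heat at kept hotspots fell less at Hum sites than at B6 sites. Hum-type hotspots had a median heat of 52.4 in B6/Hum and 80.3 in Hum/Hum, with a median log2 change of -0.50 (-0.52 to -0.48). B6-type hotspots had a median heat of 37.7 in B6/Hum and 176.4 in B6/B6, with a median log2 change of -2.03 (-2.06 to -2.0). The middle 50% of hotspots lay between -0.91 and -0.07 for Hum-type sites and between -2.54 and -1.43 for B6-type sites, so these ranges did not overlap. With the mm9 lists, whose heat sums differ between maps, the Hum-type median turned to 0.29 and 153% of Hum/Hum heat was carried; with heat divided by each list's sum it was -0.64. The heat was above the homozygote's at 2305 or 20.6% of Hum-type hotspots and at 62 or 1.45% of B6-type hotspots.

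A change of at least 2-fold was rarely upward. Over all 11489 B6/Hum hotspots with a Hum/Hum match, 19.8% were at least 2-fold lower and 0.601% at least 2-fold higher in B6/Hum. Over all 4591 with a B6/B6 match, 81.9% were at least 2-fold lower and 2.44% at least 2-fold higher. Against that background, 20.2% of Hum-type hotspots (2257) were at least 2-fold lower and 22 hotspots were at least 2-fold higher. Of B6-type hotspots 87.2% (3729) were at least 2-fold lower and 1 was at least 2-fold higher. Most of the upward changes of that size were therefore at sites matched by both homozygotes.

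The change in heat was not uniform across heat, and Hum sites split by it. Kept Hum/Hum hotspots had a median log2 change of -0.32 in the coldest decile, -0.81 in the fifth, -0.43 in the eighth and 0.03 in the hottest (0.01 to 0.05). The hottest decile carried 103.9% of its Hum/Hum heat into B6/Hum, and the fifth carried 55.9% with lost hotspots counted at 0. B6/B6 hotspots reached their lowest median, -2.28, in the eighth decile and stood at -1.72 in the hottest (-1.78 to -1.66), where 37.0% of their heat was carried. A kept hotspot had to reach the lowest B6/Hum heat called, 8.8, so medians in cold deciles describe only the hotspots that did.

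At the same homozygote heat the alleles differed as well. Among hotspots with a heat of 100 to 200 in their homozygote, 99.7% of 2767 Hum/Hum hotspots were kept (99.4 to 99.9), against 64.5% of 2832 B6/B6 hotspots (62.7 to 66.3). Their median log2 changes were -0.34 at Hum sites and -2.27 at B6 sites. With a heat of 25 to 50, 60.4% of Hum/Hum hotspots (59.0 to 61.9) and 2.65% of B6/B6 hotspots (2.18 to 3.22) were kept. Above a heat of 400 nearly all were kept, 240 of 242 in Hum/Hum and 160 of 160 in B6/B6, with median log2 changes of 0.16 (0.10 to 0.19) and -1.0 (-1.09 to -0.85). Thus even the strongest B6 hotspots had, at the median, a heat 2-fold lower in B6/Hum.

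The hottest B6/Hum hotspot was Hum-type, 4312 bp from Phtf2 at chr5:20754351, with a heat of 1101.9 in B6/Hum and 1016.7 in Hum/Hum. The next hottest Hum-type sites lay 157929 bp from Cited2 (chr10:17565289), with 955.7 in B6/Hum and 841.4 in Hum/Hum, and near Ly86, given above. A site in an intron of Slc26a4, which encodes the anion exchanger pendrin, had 882.6 in B6/Hum and 744.7 in Hum/Hum (chr12:31533766). A site 133626 bp from Rapgef2 had 865.3 in B6/Hum and 810.8 in Hum/Hum (chr3:78928890). All 5 hottest Hum-type hotspots were hotter in B6/Hum, by 0.09 to 0.40 on the log2 scale, but they were chosen for their heat in B6/Hum, which favours such sites.

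The 5 hottest B6-type hotspots did not follow the B6-type median. The hottest, in an intron of Ankfn1 (chr11:89611929), had a heat of 740.8 in B6/Hum and 638.9 in B6/B6. The site in an intron of Nrg1, which encodes the growth factor neuregulin 1, had 618.4 in B6/Hum and 419.6 in B6/B6 (chr8:32250131). A site in an intron of Erbb4, which encodes a receptor for neuregulins, had 606.7 in B6/Hum and 624.6 in B6/B6 (chr1:68488919). The log2 changes of the 5 ranged from -0.04 to 0.56, and they were chosen for their heat in B6/Hum, which favours sites that kept it.

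Among hotspots with at least the median heat of their homozygote, the largest rise at a Hum-type site was 176 bp from Orm2, an acute-phase plasma protein gene, at chr4:63366054, with a heat of 385.1 in B6/Hum and 99.5 in Hum/Hum. Its log2 change was 1.95, and the next 4 lay between 1.13 and 1.18. The deepest fall at a Hum-type site was in another intronic position of Nrg1 (chr8:32218946), with 15.8 in B6/Hum and 106.6 in Hum/Hum, a log2 change of -2.75. This Hum-type site lay 31185 bp from the B6-type site of Nrg1 whose heat rose. A Hum-type site in an intron of Magi2 (chr5:20648889) fell to 22.5 in B6/Hum, against 124.1 in Hum/Hum, and lay 105462 bp from the hottest B6/Hum hotspot.

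The sequences of the Nrg1 pair are shown because their heat changed in opposite directions within 1 gene. The B6-type stretch held no GNTGCTNCT. The Hum-type stretch held no CCTCCCT but did hold CCCCCC. Both are on the + strand of mm10.
B6-type, intron of Nrg1, chr8:32250056-32250206: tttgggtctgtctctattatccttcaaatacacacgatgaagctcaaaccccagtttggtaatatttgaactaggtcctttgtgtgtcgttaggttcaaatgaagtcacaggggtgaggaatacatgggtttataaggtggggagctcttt
Hum-type, intron of Nrg1, chr8:32218871-32219021: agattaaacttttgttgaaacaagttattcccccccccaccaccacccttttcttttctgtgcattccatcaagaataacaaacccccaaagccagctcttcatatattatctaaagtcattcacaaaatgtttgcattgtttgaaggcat

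At B6-type sites the largest rise, a log2 change of 0.76, was in an intron of Plekha5 (chr6:140591505), with a heat of 478.2 in B6/Hum and 282 in B6/B6. A site in an intron of Snrnp200, a spliceosome helicase gene, had 393.6 in B6/Hum and 257.9 in B6/B6. The deepest falls were about equal, from -4.28 to -4.38. They included a site in an intron of Sos1, which encodes a Ras exchange factor, with 16.3 in B6/Hum and 323.4 in B6/B6, and a site in an intron of Dapp1 with 14.3 in B6/Hum and 283.3 in B6/B6.

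The hottest lost hotspots of the alleles differed in kind. All 5 hottest lost Hum/Hum hotspots had a B6/Hum centre just beyond the limit, 1020 to 1473 bp away. The hottest of them lay in a coding exon of Spag1 with a Hum/Hum heat of 422.8. Of the 10 lost Hum/Hum hotspots in the 3 hottest deciles, 7 lay within 2000 bp of a B6/Hum centre. Of the 1316 such lost B6/B6 hotspots, 38 lay within 2000 bp of a B6/Hum centre, and their median distance to one was 41393 bp. The hottest lost B6/B6 hotspots lay in an intron of Impa1 with a B6/B6 heat of 346.7 and a B6/Hum centre 1228 bp away, at an untranslated region of Glrx3 with 315.8, and at sites in Epc1, Abca9 and Pdzrn4 with 276.3 to 296.3.

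Hum-type hotspots outnumbered B6-type hotspots on all 19 autosomes. Of the Hum-type and B6-type hotspots together, 72.3% were Hum-type over all autosomes. The share was lowest on chromosome 16, 66.8% (63.0 to 70.3), and highest on chromosome 19, 81.2% (77.2 to 84.7). The intervals of 5 chromosomes did not include the share over all autosomes. Heat carried from Hum/Hum ranged from 72.8% on chromosome 14 to 90.3% on chromosome 17, which holds Prdm9. Heat carried from B6/B6 ranged from 11.2% on chromosome 19 to 28.0% on chromosome 12, so the ranges of the alleles stood far apart.

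**Figure D2:**
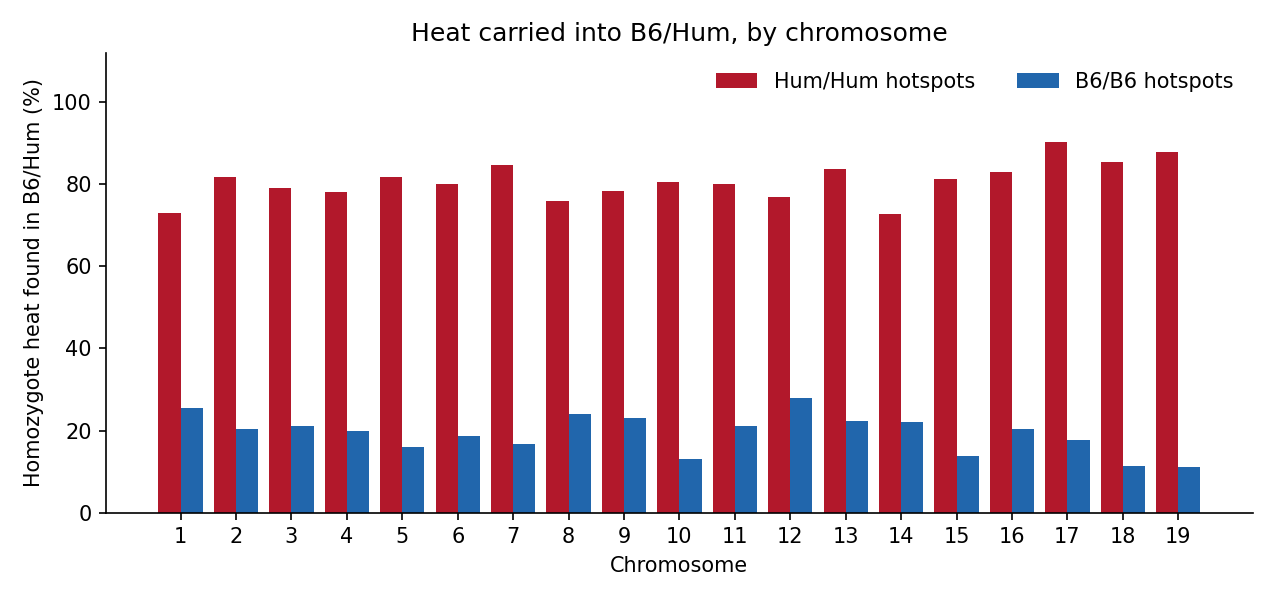
Percent of Hum/Hum heat (red) and of B6/B6 heat (blue) found at the same sites in B6/Hum on each autosome, with lost hotspots at 0 and without sites of both homozygotes. The red bars run from 72.8 to 90.3% and the blue bars from 11.2 to 28.0%.

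The chromosomes also differed at equal heat. With each heat decile weighted equally, the kept share of B6/B6 hotspots still ranged from 18% on chromosome 18 to 32.3% on chromosome 12, and that of Hum/Hum hotspots from 69.5% on chromosome 1 to 80.7% on chromosome 19. Across the 19 chromosomes the heat carried from Hum/Hum and from B6/B6 had a Spearman rho of -0.69 and a Pearson r of -0.66. Both measures come from 1 B6/Hum library with a fixed total heat, so the correlation is a description only.

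The same inverse relation was seen on a finer scale. Of 229 windows of 10 Mb with at least 30 hotspots of each homozygote, the Hum-type share of the B6/Hum heat at sites of 1 allele had a median of 80.7%, with 10% of windows below 67.4% and 10% above 92.3%. It was below 50% in 2 windows, on chromosomes 14 and 8. By number, 51.5% (35.2 to 67.5) and 58.6% (45.8 to 70.4) of the hotspots in these windows were Hum-type. In no window did the interval of the share by number lie below 50%. On chromosome 14 from 90 to 100 Mb the Hum-type share of heat was 30.2%, and 44.8% of Hum/Hum heat and 74.1% of B6/B6 heat were carried. On chromosome 8 from 30 to 40 Mb, which holds Nrg1, it was 41.4%, and 53.6% of Hum/Hum heat and 61.6% of B6/B6 heat were carried. At the other end, on chromosome 15 from 90 to 100 Mb, it was 98.1%, and 85.1% of Hum/Hum heat and 1.15% of B6/B6 heat were carried. Across the windows the carried shares had a Spearman rho of -0.48, and of -0.47 over the 227 windows without the 2 lowest.

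**Figure D3:**
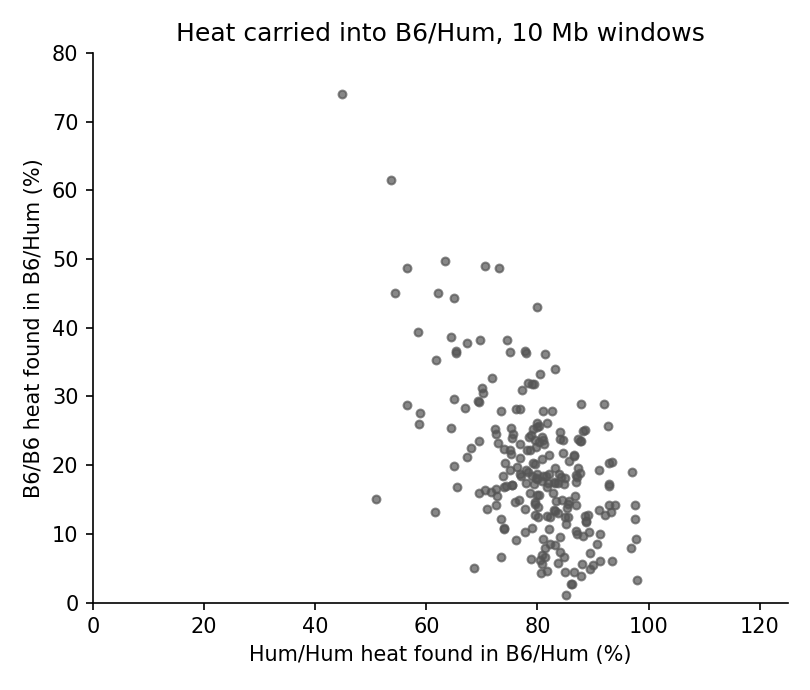
Each point is a 10 Mb window with at least 30 hotspots of each homozygote (n = 229). The x axis gives the percent of Hum/Hum heat and the y axis the percent of B6/B6 heat found in B6/Hum. The points slope downward with wide scatter (Spearman rho -0.48), and the highest window carried 44.8% of Hum/Hum and 74.1% of B6/B6 heat.

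The share also changed along chromosomes, whose centromere in mouse is at the low coordinates. With each chromosome cut into 5 equal lengths, 78.3% of the Hum-type and B6-type hotspots were Hum-type in the part farthest from the centromere (76.9 to 79.6), against 68.8 to 72.6% in the other 4. In that distal part 14.4% of B6/B6 heat was carried, against 16.8% in the part next to the centromere and 21.4 to 23.6% in the 3 between. The heat carried from Hum/Hum was 77.3 to 83.5% over the 5 parts and highest in the distal part.

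Kept shares over all heats were similar whether or not a hotspot of the other allele lay close by. Beyond the matching limit, 70.9 to 74.9% of Hum/Hum hotspots were kept in each class of distance to the nearest B6/B6 hotspot. For B6/B6 hotspots the range over the same 6 classes was 23.4 to 26.9%. With a hotspot of the other allele within 10 kb, the kept share minus that with none within 100 kb was 2.09 points for Hum/Hum hotspots (-0.33 to 4.49) and -1.64 points for B6/B6 hotspots (-3.81 to 0.58), so both intervals included 0. Some alternatives did not include 0. Within the 3 heat groups the B6/B6 difference was -2.79 points (-4.38 to -1.14), and against the hotter 50% of Hum/Hum hotspots it was -2.66 (-5.15 to -0.01). The Hum/Hum difference was 3.38 points with a matching limit of 2000 bp (0.88 to 5.85) and 2.84 with equal list lengths (0.36 to 5.29), but its sign turned within the heat groups, at -1.01 (-2.82 to 0.78).

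Within hot hotspots a difference appeared for the B6 allele. In the hottest of 3 equal heat groups, 63.4% of 764 B6/B6 hotspots with a Hum/Hum hotspot within 10 kb were kept (59.9 to 66.7), against 70.5% of 1378 with none within 100 kb (68.1 to 72.9). The difference was -7.19 points (-11.4 to -3.04), with similar median heats of 148.2 and 152.1. Where the nearby Hum/Hum hotspot was itself at or above the Hum/Hum median heat, 59.8% were kept (54.9 to 64.6), against 67.0% where it was colder (62.1 to 71.6). These intervals overlap, and the heat values went the other way. Median log2 changes of the kept ones were -2.06 with the hotter neighbour and -2.15 with the colder. The heat carried was 24.4 and 23.2%. For Hum/Hum hotspots of the hottest group, where nearly all were kept, the shares were 99.2% near and 99.8% far, a difference of -0.56 points (-1.49 to 0.15). In the middle heat group, 78.6% of 206 Hum/Hum hotspots 1 to 3 kb from a B6/B6 hotspot were kept (72.5 to 83.7). In the farther classes of that group 87.0 to 90.2% were kept. These values for the hottest group alone, and its split by the heat of the neighbour, were added after the data were seen.

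**Figure D4:**
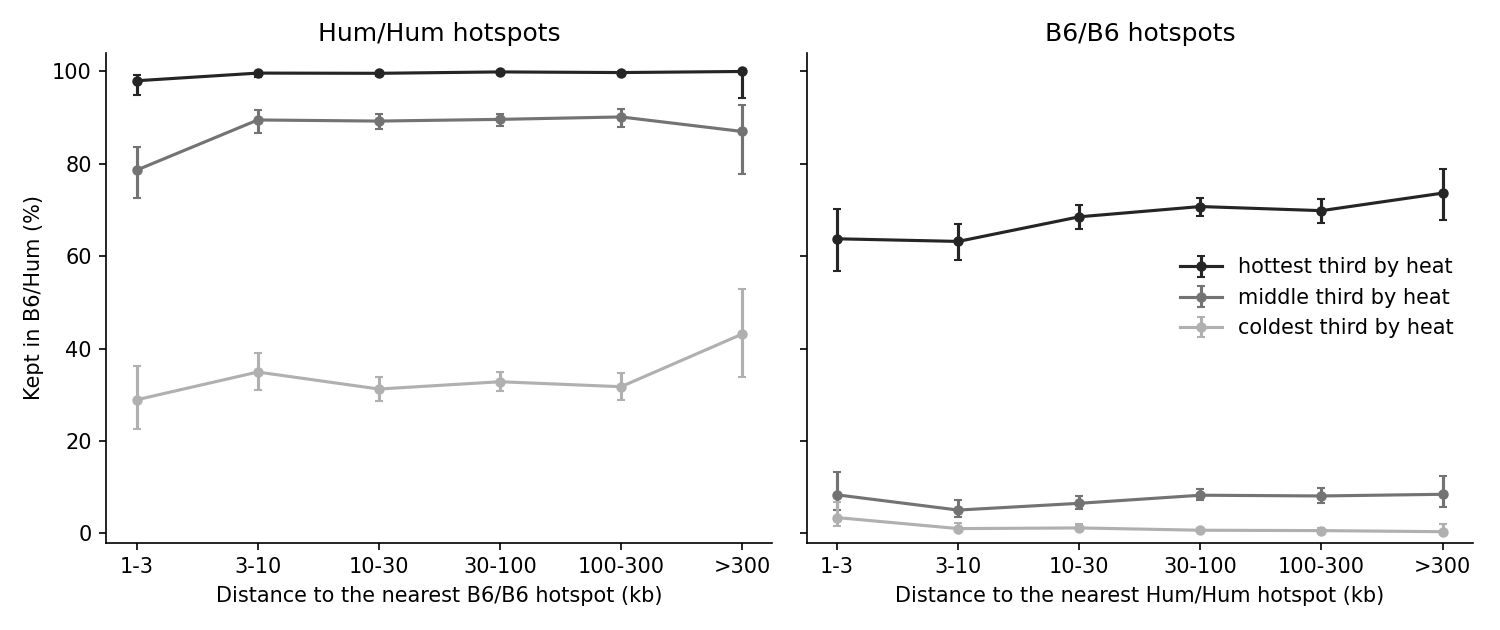
Percent of Hum/Hum hotspots (left) and B6/B6 hotspots (right) kept in B6/Hum by distance to the nearest hotspot of the other homozygote, in kb, beyond the matching limit, for 3 equal heat groups with Wilson 95% intervals. In the hottest B6/B6 group the kept share was 63.8% at 1 to 3 kb and 63.2% at 3 to 10 kb, and 68.5 to 73.7% farther away. In the middle Hum/Hum group it was 78.6% at 1 to 3 kb and 87.0 to 90.2% farther away.

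Close to strong B6-type hotspots, the heat of Hum-type hotspots was lower relative to Hum/Hum than far away, although their B6/Hum heat was similar. The 173 B6-type hotspots in the hottest decile of the B6/Hum map were used as landmarks. They were chosen for their heat in B6/Hum, which favours regions where B6 sites kept their heat. The values around them are therefore a description only. Hum-type hotspots between 10 and 30 kb from one had a median heat of 49.75 in B6/Hum and 96.15 in Hum/Hum, a median log2 change of -0.90 (-1.13 to -0.68, n = 40). The median was -0.85 between 30 and 100 kb (-1.0 to -0.59, n = 120), -0.66 between 100000 and 300000 bp (-0.75 to -0.60, n = 314) and -0.48 beyond 1 Mb (-0.50 to -0.46, n = 9767). Beyond 1 Mb the median heat was 52.2 in B6/Hum and 78.9 in Hum/Hum. Restricted to Hum-type hotspots with a Hum/Hum heat of 50 to 200, the medians were -1.02 between 10 and 30 kb and -0.52 beyond 1 Mb. Other B6-type hotspots fell less near a landmark. Their median log2 change was -1.64 between 30 and 100 kb (-1.94 to -1.17, n = 59) and -2.08 beyond 1 Mb (-2.11 to -2.04).

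Around other landmarks the differences were smaller, and over all heats they did not grow steadily with proximity. Other Hum-type hotspots had a median log2 change of -0.57 between 1 and 10 kb from 1 of the 1379 Hum-type hotspots in the hottest decile (-0.65 to -0.42), -0.60 between 10 and 30 kb (-0.70 to -0.53) and -0.49 beyond 1 Mb (-0.52 to -0.45). Restricted to a Hum/Hum heat of 50 to 200, these medians were -0.68, -0.65 and -0.53. Around the hottest decile of the Hum/Hum map the restricted medians were -0.75, -0.72 and -0.46. With that restriction a decline toward strong Hum sites was thus seen as well. With landmarks from the hottest decile of the B6/B6 map, which does not use B6/Hum heat, Hum-type medians were -0.50 between 1 and 10 kb (-0.62 to -0.38, n = 154), -0.61 between 10 and 30 kb (-0.69 to -0.50) and -0.46 beyond 1 Mb (-0.49 to -0.43). Over all heats the nearest of these classes was thus close to the farthest. Restricted to a Hum/Hum heat of 50 to 200, the medians were -0.58 (-0.88 to -0.48, n = 70), -0.68 (-0.79 to -0.60) and -0.46 (-0.51 to -0.42). With that restriction both near classes were lower than the farthest. B6-type hotspots had medians of -1.94 between 1 and 10 kb from a strong Hum-type hotspot (-2.37 to -1.70, n = 45), -2.14 between 10 and 30 kb (-2.31 to -1.97) and -1.90 beyond 1 Mb (-1.95 to -1.85). Restricted to a B6/B6 heat of 50 to 200, these medians were -1.95 (-2.37 to -1.62, n = 20), -2.32 (-2.48 to -2.09) and -2.07 (-2.12 to -2.02). A regional difference shared by neighbouring sites cannot be told apart from an effect of the strong hotspot.

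H3K4me3, the mark PRDM9 places, had been measured in the homozygotes and was not used to call hotspots kept. The enrichment deposited by the authors is a ratio to the local background in the 1 kb bin at each hotspot, from 1 Hum/Hum and 1 B6/B6 library. Bins flagged by the authors as likely PRDM9-independent, 1247 in Hum/Hum and 982 in B6/B6, were left out. The B6/B6 table used the input of Hum/Hum males, so levels were compared within a table only. Kept hotspots had a median enrichment of 1.13 in Hum/Hum and 1.47 in B6/B6, against 0.303 and 0.225 at the lost ones.

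Within heat deciles of the homozygote, kept hotspots still had more H3K4me3 in the deciles given here. Among B6/B6 hotspots of the eighth decile, 708 kept ones had a median enrichment of 1.20 and 867 lost ones 0.607, with median heats of 115.4 and 108.6. In the ninth decile the medians were 1.45 at 1240 kept and 0.687 at 324 lost hotspots, and in the hottest 1.92 at 1507 kept and 0.805 at 60 lost hotspots. Kept hotspots were also hotter there, with median heats of 169.15 against 155.65 in the ninth decile and 271.1 against 234.15 in the hottest. Among Hum/Hum hotspots of the fourth decile, 953 kept ones had a median of 0.638 and 452 lost ones 0.397. Averaged over the deciles with at least 20 hotspots of each kind, kept hotspots exceeded lost ones by 0.238 in Hum/Hum and by 0.569 in B6/B6.

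**Figure D5:**
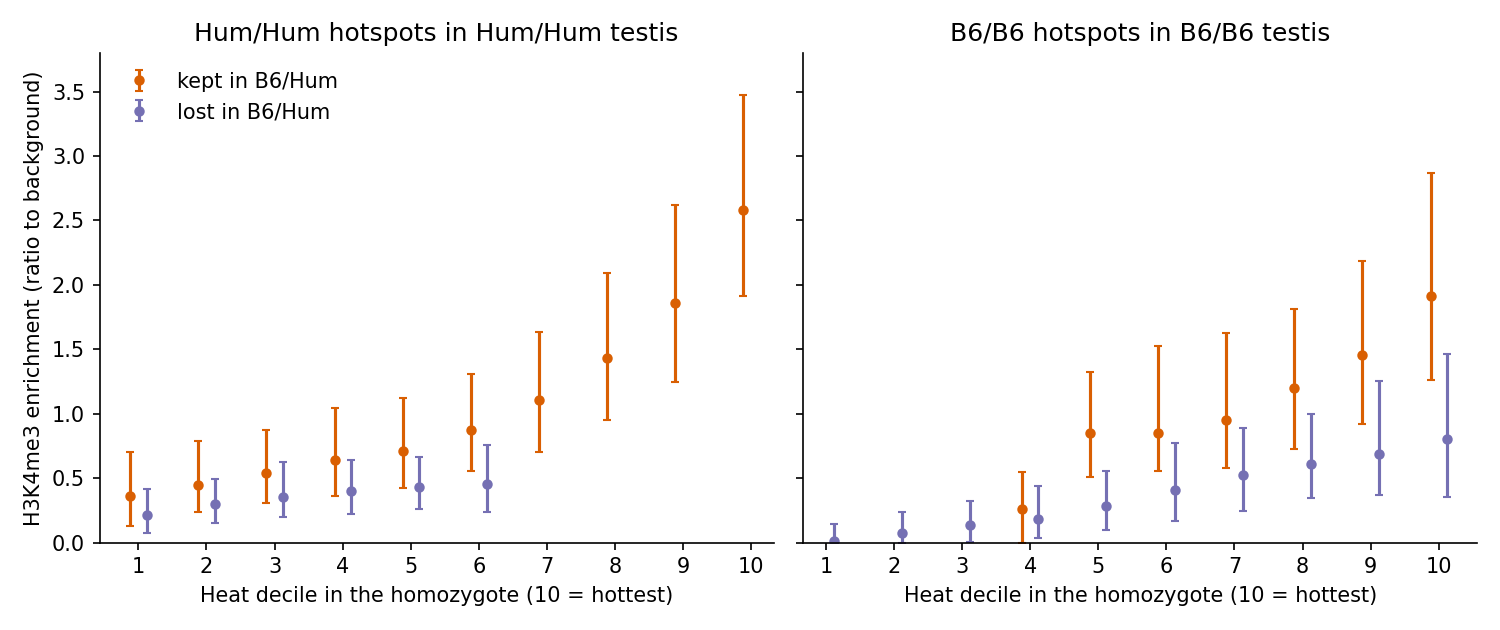
Median H3K4me3 enrichment with the middle 50% of hotspots as bars, at hotspots kept (orange) and lost (violet) in B6/Hum, by heat decile in the homozygote, for sets of at least 20 hotspots. In the hottest B6/B6 decile the medians were 1.92 at kept and 0.805 at lost hotspots.

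H3K4me3 also went with how much heat a hot kept hotspot retained. In the colder B6/B6 deciles given here it went with the kept share, and too few hotspots were kept to compare the heat. Each decile was cut into 5 equal groups by enrichment. In the hottest decile of B6/B6, 99.0% of the 313 hotspots in the highest group and 88.9% of the 314 in the lowest were kept. The kept ones had median log2 changes of -1.0 in the highest group and -2.46 in the lowest. In the hottest decile of Hum/Hum these medians were 0.28 and -0.33. In the seventh B6/B6 decile they were -1.97 and -2.02, and in the sixth -1.77 and -1.57. Median homozygote heats were 301.6 and 247.0 in B6/B6 and 321.9 and 255.4 in Hum/Hum, so these groups were not equal in heat. In the eighth B6/B6 decile 75.6% of hotspots were kept in the highest group (70.5 to 80.0), against 20.3% in the lowest (16.2 to 25.1). Over kept hotspots the enrichment in the homozygote had a rho of 0.73 with B6/Hum heat and 0.65 with Hum/Hum heat (n = 10259), and of 0.54 with B6/Hum heat and 0.40 with B6/B6 heat (n = 4026), each across hotspots of single libraries.

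The 314 B6/Hum hotspots within 1000 bp of both homozygotes had a median heat of 82.05 in B6/Hum, 76.8 in Hum/Hum and 52.7 in B6/B6. Their median log2 change was 0.02 over Hum/Hum (-0.07 to 0.09), 0.33 over B6/B6 (0.18 to 0.56) and 0.12 over the mean of both (0.02 to 0.23). For the 290 of them outside bins of high input these medians were 0.07 (-0.02 to 0.17), 0.46 (0.20 to 0.75) and 0.18 (0.08 to 0.28). Outside bins of high input, the hottest lay in a coding exon of Mdn1, a ribosome assembly ATPase gene, with 850.9 in B6/Hum, 578 in Hum/Hum and 447.1 in B6/B6. A site in an intron of Mrtfb had 726.5 in B6/Hum, 521 in Hum/Hum and 82.5 in B6/B6. In Trip13, which encodes a meiotic checkpoint ATPase, a shared site had 104.6 in B6/Hum, 105.3 in Hum/Hum and 100.7 in B6/B6.

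The 397 hotspots of neither homozygote were mostly weak, with a median heat of 15 in B6/Hum, and 237 of them fell in the coldest decile of that map. Only 17 lay within 2000 bp of a homozygote hotspot. In the map of (B6xPWD)F1 hybrid males with the Hum and PWD alleles, 32.2% of them had a hotspot within 1000 bp (27.8 to 37.0), and in that of (PWDxB6)F1 males with these alleles 16.9% (13.5 to 20.9). In the 4 maps without the Hum allele the share was 3.27 to 5.29%. The hottest lay 1677 bp from Lin54 with a heat of 119.4 and in an intron of Syne2, a nuclear envelope linker gene, with 118.4.

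Hotspots lost in B6/Hum were also found less often in hybrid maps that carry the same allele, within heat deciles. In the eighth decile of B6/B6, 88.0% of kept hotspots (85.5 to 90.1) and 54.2% of lost ones (51.0 to 57.5) had a hotspot within 1000 bp in the (PWDxB6)F1 hybrid map with the PWD and B6 alleles. In the fourth decile of Hum/Hum, 58.7% of kept hotspots (55.6 to 61.6) and 27.8% of lost ones (24.0 to 32.0) did so in the (B6xPWD)F1 map with the Hum and PWD alleles. These hybrids carry 1 copy of the allele beside a PWD allele and 1 PWD genome, and each map is 1 library.

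Kept and lost hotspots lay in similar places. By the GENCODE M21 protein-coding genes, 56.0% of kept and 53.1% of lost Hum/Hum hotspots were inside genes, and 54.7% of kept and 51.8% of lost B6/B6 hotspots. Transcription starts within 1000 bp were found at 4.22% of kept and 4.43% of lost Hum/Hum hotspots, and at 4.31% of kept and 4.10% of lost B6/B6 hotspots. Among B6/Hum hotspots of both homozygotes the share was 12.4% (9.22 to 16.5). The allele's letters were not more frequent at kept hotspots once heat was held equal. With deciles weighted equally, 73.6% of Hum/Hum hotspots with CCTCCCT and 73.8% without it were kept, and 25.7% of B6/B6 hotspots with GNTGCTNCT and 25.9% without it.

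Hotspots were also counted at listed genes, most of them of the meiotic recombination machinery. Their number was not compared with that at other genes. Within 2000 bp of 33 autosomal listed genes, without Esrrg and Hlx, lay 12 B6/Hum hotspots, of which 9 were Hum-type, 1 B6-type, 1 both and 1 neither, against 69.1% Hum-type over all B6/Hum hotspots. Of 12 Hum/Hum hotspots there 2 were lost, against 25.9% of all Hum/Hum hotspots. Of 18 B6/B6 hotspots 16 were lost, against 72.9% of all B6/B6 hotspots, and these 16 include 7 in Prdm9 and Gm960 with an H3K4me3 enrichment of 0. Numbers this small do not set the genes apart from all hotspots. Mlh3, which encodes a mismatch-repair protein needed for crossovers, had a pair of Hum-type sites, with 184.5 and 166.2 in B6/Hum and 168.1 and 209.5 in Hum/Hum. Dmc1 itself had a Hum-type site with 37.5 in B6/Hum and 44.8 in Hum/Hum. The B6-type site lay 825 bp from Hsf2bp, a gene needed for meiotic recombinase loading, with 203.9 in B6/Hum and 456.4 in B6/B6. In Esrrg, an orphan nuclear receptor gene, 4 of 10 Hum/Hum sites and 7 of 7 B6/B6 sites were lost.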

How the data were processed

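No reads were processed here; every value comes from deposited tables. The submitters' processing notes list BWA, SAMtools and bedtools, with builds mm10 and mm9 and no versions. DMC1 heat is a signal that the authors computed per hotspot. How heat was defined, which caller found the hotspots and how deep the DMC1 libraries were is not given in the sources used here. For B6/B6, the authors re-analysed a library made by other submitters. Per the file headers, the H3K4me3 tables hold counts of ChIP and input fragments over a 1 kb bin at each hotspot. Per the file headers, enrichment is a ratio to local background with a minimum of 0. A p-value column from the authors' likelihood ratio test was not used. Per the labels' protocols, the Hum/Hum and B6/B6 H3K4me3 libraries, 1 each, had 51 bp reads and 70 to 80 M usable pairs. Each was divided into pseudoreplicates, which are not independent. The bins held 1090071 and 1091948 ChIP fragments in Hum/Hum and 757599 and 757932 in B6/B6.

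Each centre was matched to the nearest centre within 1000 bp, and a kept hotspot took the B6/Hum heat of that centre. Deciles and the 3 heat groups are equal in number. Bins with input above 10 times the median (32 in Hum/Hum, 34 in B6/B6) and, for sequences, chromosome 18 were left out of named examples. Sequences and chromosome lengths are from RefSeq GRCm38.p6, which is mm10. Genes are from GENCODE M21, in which Iho1 and Top6bl are named Ccdc36 and Gm960. The software was Python 3.11.15 with pandas 2.3.3, NumPy 2.4.6, SciPy 1.17.1 and, for plots, Matplotlib 3.10.9. The matching was tested on simulated data.

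Named sites are the 5 hottest of each type, the 5 hottest lost of each homozygote, and the hottest of both and of neither. They also include the 5 highest and 5 lowest changes of each type. The rest are sites within 2000 bp of listed genes, which are mostly meiotic and include Esrrg and Hlx. The motif examples and the Nrg1 sequence pair were picked after their values were seen. The members and lists were chosen with earlier results of these data known. Alternatives were other matching limits, mutually nearest centres, equal list lengths, the mm9 lists, scaled heat, other treatments of lost or high-input hotspots, and leaving out chromosome 17. The F1 H3K4me3 tables and X hotspots were not used here.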

Additional observations from a re-analysis of the deposited data

How the results depend on the processing

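No paired analysis was possible because each genotype had 1 library, so no library could be left out either. Of 152 alternative values, 117 kept their direction and stayed within the main interval, or within 5% where there was none, 34 moved further and 1 reversed. The 117 include the H3K4me3 differences from ChIP over input counts, which are on another scale and were compared by sign only, 0.476 in Hum/Hum and 1.14 in B6/B6. The mm9 lists, whose heat sums differ between maps, gave a median log2 change of 0.29 at Hum-type hotspots, the reversed value, and -1.91 at B6-type hotspots; divided by the autosomal sums these were -0.64 and -2.32. In the mm9 lists as deposited 153% of Hum/Hum heat and 28.5% of B6/B6 heat were carried, the Hum-type share of B6/Hum hotspots was 67.8%, and 78.3% of Hum/Hum and 29.5% of B6/B6 hotspots were kept. The mm9 kept share of the hottest minus the coldest decile was 81.5 points in Hum/Hum and 94.9 in B6/B6, and the difference in median log2 change was 0.86 and 0.75.

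A matching limit of 500 bp gave kept shares of 73.3% in Hum/Hum and 26.4% in B6/B6, and an H3K4me3 difference of 0.268 in Hum/Hum. A limit of 2000 bp gave a Hum-type share of 67.9%, and for B6/B6 28.3% kept, 23.7% of heat carried and 92.2 points between deciles. With each map cut to its 15515 hottest hotspots, the Hum-type share was 70.2%, and 72.0% of Hum/Hum and 28.2% of B6/B6 hotspots were kept. In that setting the Hum-type median was -0.48, the Hum/Hum deciles differed by 91.0 points and by 0.55 in log2 change, and the H3K4me3 differences were 0.261 in Hum/Hum and 0.688 in B6/B6. With lost hotspots set to the lowest heat, 29.8% of B6/B6 heat was carried. Deciles by the mean log2 heat of both maps gave differences in log2 change of 0.94 at Hum-type and 1.24 at B6-type hotspots. Within heat groups, the near minus far kept share of Hum/Hum turned in sign to -1.01 points; it is counted as moved since both intervals include 0. Chosen after seeing the data, hotspots of 1 homozygote only gave 25.9% kept, 19.6% of heat carried and 95.6 points between deciles in B6/B6; scaled mm9 heat, decile-weighted chromosomes and the split of the hottest group were also added then. Apart from scale and list length, which the alternatives changed by construction, the cause of these shifts was not tested. H3K4me3 could not be computed for mm9, since its bins are mm10. The depth of the DMC1 libraries is unknown, so a lost hotspot is one that was not called, not one shown to be absent.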

Other observations

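Prdm9 itself held 5 B6/B6 hotspots, all lost in B6/Hum, with B6/B6 heats of 24.2 to 69.3. Of these, 4 lay at coding exons and 1 at an untranslated region, and all had an H3K4me3 enrichment of 0. Their bins held 21 to 77 input fragments, against a median of 33 over B6/B6 bins. The ChIP count of each pseudoreplicate was below the input count. Whether these are sites of B6 PRDM9 was not tested. No hotspot of the 8 other DMC1 maps lay within 7433 bp of them. Gm960, the gene listed elsewhere as Top6bl, which encodes a partner of SPO11, held 2 lost B6/B6 hotspots with heats of 22.4 and 50.9, an enrichment of 0 and no hotspot of the other maps within 6147 bp.

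In Esrrg the hottest lost B6/B6 hotspot had a heat of 256.3 and an enrichment of 0.842, and lay 24261 bp from the nearest B6/Hum hotspot. Esrrg, which encodes an orphan nuclear receptor, also held the hottest Hum-type hotspot of the listed genes, with 242.5 in B6/Hum and 232.7 in Hum/Hum. In Ankrd31, which encodes a protein needed for meiotic break formation, a Hum-type hotspot had 36.4 in B6/Hum and 101.8 in Hum/Hum.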
